A study of Equus caballus with 14 samples.

Results

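Matrix metalloproteases (MMPs), the related ADAM and ADAMTS proteases, the plasminogen activators and the inhibitors of these enzymes were examined in gluteus medius muscle of horses with polysaccharide storage myopathy (PSSM). Probes were taken by gene symbol alone: any symbol starting with MMP, TIMP, ADAM or ADAMTS and a number, together with PLAU, PLAUR, PLAT and RECK. These symbols matched 73 of the 24493 probes of the microarray, 7 of them equine and 66 mouse, for 61 genes. The 38 probes with a value from at least 5 horses, 7 equine and 31 mouse, were kept and covered 33 genes.

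MMPs are zinc-dependent proteases that cut collagens and other proteins of the extracellular matrix, and most are secreted as inactive proenzymes. TIMPs are their tissue inhibitors, plasmin made by the plasminogen activators can release active MMPs, and ADAMs cut the outer parts of membrane proteins whereas ADAMTS enzymes cut secreted matrix proteins such as proteoglycans. In skeletal muscle these enzymes are known for remodelling the basal lamina and the connective tissue around fibers during regeneration and fibrosis.

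RNA from 7 PSSM horses (horses 5, 12, 32, 38, 42, 44 and 54) was compared with 1 pool of RNA from 6 control muscles of sound horses. The horses were adult Norman Cobs of both sexes, the disease was diagnosed from amylase-resistant material inside fibers, and the controls were wild type for the GYS1 mutation of this disease. In the study's genotyping, horse 44 was homozygous and horses 12, 32, 38, 42 and 54 were heterozygous, while horse 5 is named in the labels only and its genotype is not used here. Each horse was hybridized on 2 microarrays with the dyes Cy3 and Cy5 swapped, 14 in all, and every value below is the log2 ratio of PSSM muscle over the control pool, averaged per horse. The pool is 1 control sample, so the SD is between PSSM horses, and differences between control horses enter no error or p-value. In whole muscle, a lower or higher number of cells of a type and a lower or higher amount of RNA per cell cannot be told apart.

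A microarray held 7674 to 17071 values, and 21 to 38 of the 38 kept probes had one. Horse RNA on the mouse probes is a cross-species hybridization, so equine and mouse probes were tested and adjusted separately. All 4 equine probes of muscle fiber markers and 14 of 30 mouse ones had values on all 14 microarrays. The direction of a ratio depended on the dye in many probes: turned the same way, the 2 microarrays of a horse correlated with a median r of 0.479 over equine probes (-0.224 to 0.634, 7 pairs) and 0.183 over mouse probes (-0.121 to 0.377). The Cy5 microarray of horse 54 stood apart over all probes, with an SD of its log2 ratios of 2.11. Among the 14 microarrays the median was 0.68 and the lowest 0.46. Over equine probes alone it did not stand apart, with an SD of 0.97, below the 0.99 and 1.03 of horse 44.

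None of the 38 probes was called up- or down-regulated by the moderated test of limma at an adjusted p under 0.05. Among equine probes this was 0 of 7, where 24.4% of all 361 tested were called, and among mouse probes 0 of 31, where 1.81% of all 13067 were called. At an unadjusted p under 0.05, limma marked 1 of the 7 equine probes (PLAU; 38% of all equine probes) and 3 of the 31 mouse probes (1 of 2 Adam10 probes, Adamts10 and Adamts12; 19.1% of all mouse probes). The plain test of the horse means that the methods name gave 0 of 7 and 0 of 31 after adjustment, where it called 18.6% of all equine and 0.574% of all mouse probes. The study's own list of significant genes does include PLAU, as described below. The median log2 ratio was -0.10 over the 7 equine probes, against -0.08 over all tested equine probes, and -0.02 over the 31 mouse probes, against -0.01 over all tested mouse probes. Of the 38 probes, 4 equine and 16 mouse ones lay below 0, where 58.4% of all tested equine and 51.9% of all tested mouse probes did.

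**Figure D1:**
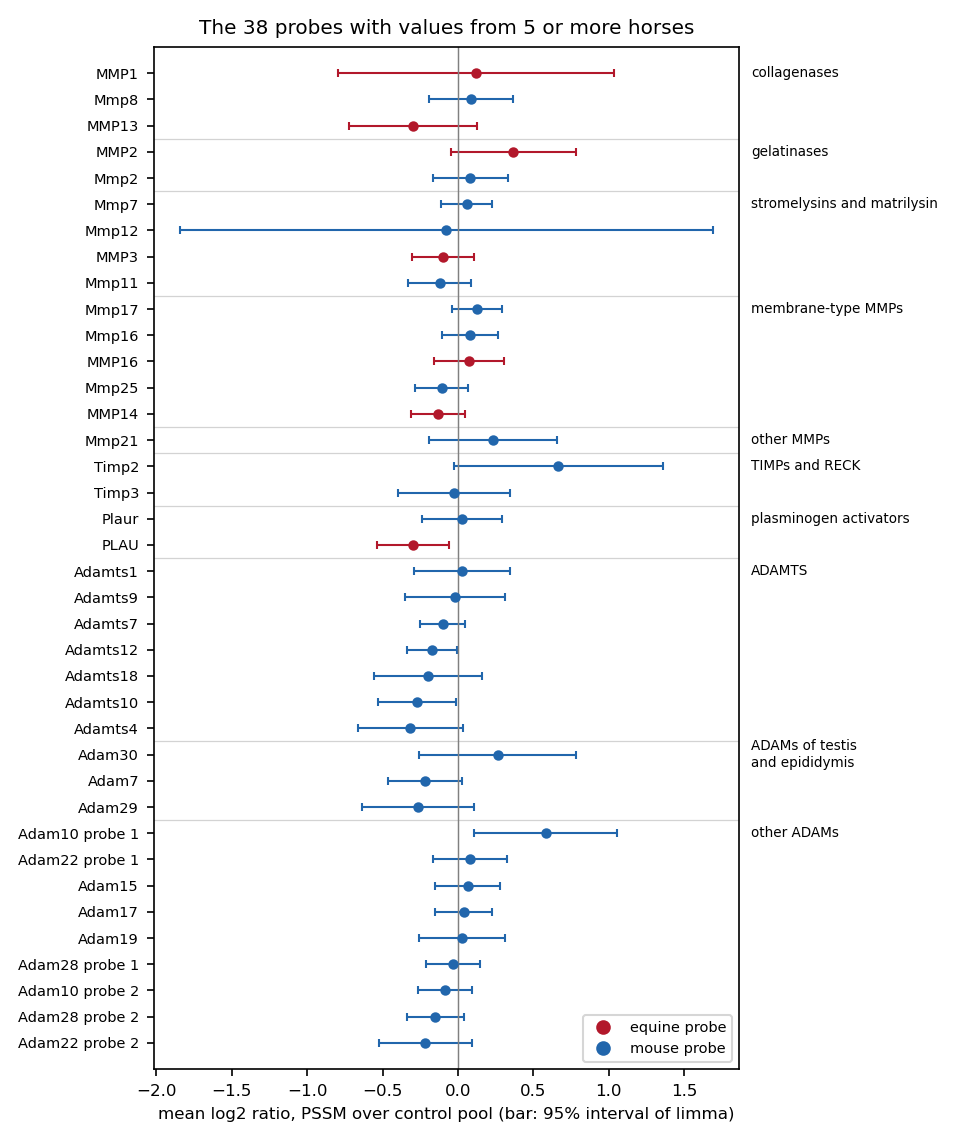
Mean log2 ratio of PSSM muscle over the control pool (horizontal axis) for the 38 probes with values from 5 or more horses, grouped by role, with the 95% interval of limma as bars; red points are equine probes and blue points mouse probes. The intervals of PLAU, Adam10 probe 1, Adamts10 and Adamts12 leave out 0, that of Adamts10 only with the Cy5 microarray of horse 54, and none of the 38 probes passed after adjustment.

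PLAU, the urokinase that turns plasminogen into plasmin, had the lowest adjusted p among the 38 probes. Its equine probe gave log2 ratios of -0.18 in horse 5, 0.02 in horse 12, -0.49 in horse 32, -0.21 in horse 38, -0.36 in horse 42, -0.13 in horse 44 and -0.75 in horse 54. The values lay below 0 in 6 of 7 horses, with horse 54 lowest and horse 12 just above 0. The mean was -0.30 ± 0.26 (SD, n = 7 horses), 1.23-fold lower than the pool, with a 95% interval of -0.54 to -0.06 and an adjusted p of 0.0700 in limma, which missed the threshold. A two-sided exact test that flips the signs of the horses gave p = 0.0312, where 0.0156 is the smallest it can give. When the 14 microarrays entered limma singly, with the dye as a term and the horse as a block, the probe passed (adjusted p = 0.0344; 22.7% of all equine probes were called lower there), and its adjusted p over the 20 alternatives ran from 0.00933 to 0.422. By dye, its mean was -0.45 where PSSM muscle carried Cy3 and -0.15 where it carried Cy5. The study lists PLAU among its significantly modulated genes, at a normalized ratio of 0.81. The mean here gave the same ratio of 0.81, but the plain test of the horse means gave an adjusted p of 0.0886. The reason for this difference was not tested.

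Plaur, the receptor that holds urokinase at the cell surface, had a mouse probe with a mean of 0.03 ± 0.29 (n = 6 horses, 95% interval -0.24 to 0.29). The 6 values ran from -0.37 in horse 5 to 0.48 in horse 54 and were split evenly around 0. Plat, the tissue-type activator, and the mouse probe of Plau had values from only 3 horses and 1 horse and were not tested. Of the partners of this system, PLG, plasminogen itself, was down-regulated on its equine probe in all 7 horses (-0.54 ± 0.27, 1.45-fold lower, adjusted p = 0.00810), from -0.28 in horses 5 and 12 to -0.95 in horse 44. Plasminogen is made mainly in the liver, and mouse probes of liver cell markers were also lower than the pool. Of these, 9 of 12 tested were down-regulated, with a median of -1.44, and the medians of the 7 horses ran from -1.70 to -0.81. PLG was least lowered in horses 5 and 12, where the liver medians were -1.48 and -1.57. PLG was most lowered in horse 44 (liver median -1.18), followed by horse 54 (-0.75, liver median -0.95). Single liver probes differed in their lowest horse: Alb was lowest in horse 54 (-5.23), Fgg in horse 44 (-6.05) and Ttr in horse 5 (-1.45). Alb, the gene of serum albumin, was 18.3-fold lower (log2 ratio -4.19 ± 1.08). The 2 tested equine probes of liver markers had a median of 0.04 and neither passed. The part of liver-type RNA in the PLG value was not tested. The other 7 tested probes of plasminogen partners, all mouse, gave 0 calls, with a median of -0.17.

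Gelatinase A, MMP2, cuts denatured collagen and type IV collagen of basement membranes and is activated at the cell surface by MMP14 together with TIMP2. Its equine probe gave 0.46 in horse 5, -0.01 in horse 12, -0.20 in horse 32, 0.49 in horse 38, 0.42 in horse 42, 1.45 in horse 44 and -0.04 in horse 54. Horse 44 stood above all the others, horses 5, 38 and 42 lay close together above 0, and the remaining 3 were at or below 0. The mean was 0.37 ± 0.55 (n = 7 horses, 95% interval -0.05 to 0.78, adjusted p = 0.174), and 0.19 without horse 44. The mouse probe of Mmp2 had a mean of 0.08 ± 0.30 (95% interval -0.17 to 0.33) and gave -0.26 in horse 44, its lowest value. The difference between the equine and the mouse probe was 0.29 ± 0.70 (exact sign-flip test, p = 0.438, adjusted p = 0.547 over 5 pairs of probes of a gene). Mmp9, the other gelatinase, had an empty cell on every microarray.

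TIMP2 both inhibits MMPs and takes part in the activation of MMP2. Its mouse probe had the highest mean of the 38 probes, with values of 0.96 in horse 5, 0.95 in horse 12, -0.13 in horse 32, 0.60 in horse 38, 0.13 in horse 42, 2.52 in horse 44 and -0.36 in horse 54. Horse 44 was again highest, and horses 32 and 54 lay below 0. The mean was 0.67 ± 0.96 (n = 7 horses, 95% interval -0.03 to 1.36, adjusted p = 0.279), and it was 0.36 without horse 44. In the 5 horses with both dye orientations the mean was 1.05 in Cy3 and 0.71 in Cy5, lower in Cy5 in all 5 (dye difference -0.34, adjusted p = 0.0849 in limma). Timp3, an inhibitor bound to the matrix that also blocks some ADAMs, ran from -0.72 in horse 44 to 0.82 in horse 54, with a mean of -0.03 ± 0.49 (95% interval -0.40 to 0.35). Timp1 and Timp4 had empty cells throughout, and Reck, a membrane-anchored inhibitor of MMPs, had a value from 1 horse only.

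**Figure D2:**
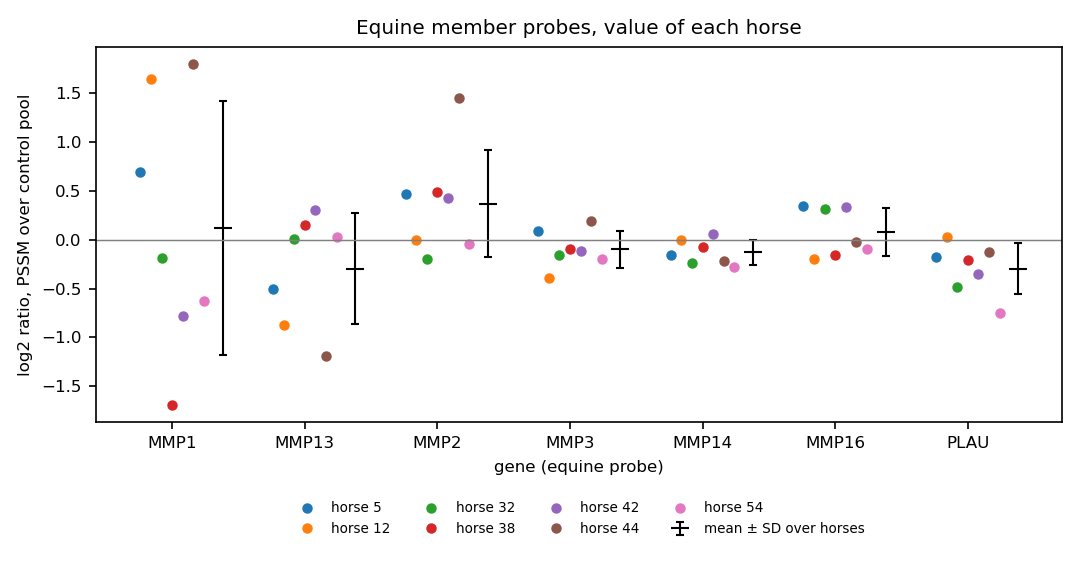
Log2 ratio of PSSM muscle over the control pool (vertical axis) for the 7 equine probes, 1 point per horse, with the mean and SD over 7 horses beside each gene. MMP1 spreads from -1.69 to 1.79, MMP2 has horse 44 apart at 1.45, and PLAU lies below 0 in 6 of 7 horses.

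The collagenases cut fibrillar collagen. MMP1, interstitial collagenase, gave 0.69 in horse 5, 1.64 in horse 12, -0.19 in horse 32, -1.69 in horse 38, -0.78 in horse 42, 1.79 in horse 44 and -0.63 in horse 54. The 3 horses above 0 are those with a value in both dye orientations, and the 4 below 0 had a value with PSSM muscle in Cy3 only. In Cy3 alone the split was the same, with the 3 horses above 0 at a mean of 0.82. The mean was 0.12 ± 1.30 (n = 7 horses, 95% interval -0.80 to 1.04, adjusted p = 0.849). In 3 of its 10 values the control spot was taken to be at the floor of the scale, by the pattern of the ratios (2.33% of all equine values), and with these left out the mean was -0.26. MMP13, collagenase 3, ran from -1.19 in horse 44 over a median of 0.01 to 0.31 in horse 42, with a mean of -0.30 ± 0.57 (95% interval -0.72 to 0.13, adjusted p = 0.284), and of -0.15 without horse 44. Horses 5, 12 and 44 lay at -0.51 or below while the other 4 lay above 0. These are the same 3 horses in which MMP1 was above 0. Mmp8, the collagenase of neutrophils, was measured in 5 horses on its mouse probe (0.09 ± 0.26, 95% interval -0.19 to 0.37).

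Among the membrane-type MMPs, the equine probe of MMP14, the main cell-surface activator of MMP2, lay between -0.28 in horse 54 and 0.06 in horse 42, with a median of -0.15. It was below 0 in 6 of 7 horses and its spread was small (mean -0.13 ± 0.13, n = 7 horses, 95% interval -0.31 to 0.05, adjusted p = 0.266 in limma; exact sign-flip p = 0.0469). Centring each microarray on its equine probes raised the median of all equine and of all mouse probes by 0.12, and MMP14 then lay at -0.0065 (adjusted p = 0.958). Under the same centring PLAU lay at -0.17 (adjusted p = 0.197). Without adjustment, the plain test of the methods marked MMP14 and PLAU, 2 of 7 equine probes as lower against 27.1% of all equine probes, and Adamts7 and Adamts12, 2 of 31 mouse probes as lower against 9.85% of all mouse probes. MMP16 was read by both an equine probe (0.07 ± 0.25, 95% interval -0.16 to 0.31) and a mouse probe (0.08 ± 0.18, 95% interval -0.11 to 0.26). The means of these 2 probes differed by less than 0.01, and the exact sign-flip test of the difference gave p = 1. The SD of this difference over horses was 0.33, so the close means do not show that the probes agree horse by horse. The equine probe had a mean of 0.38 in Cy3 and -0.23 in Cy5. In 3 of the 9 values of the mouse probe the control was at its floor (9.16% of all mouse values). Mmp17, which is anchored to the membrane by a lipid, had a mean of 0.13 ± 0.15 (adjusted p = 0.381), but all 4 horses with both dyes were above 0 in Cy3 and below 0 in Cy5, the other 3 had Cy3 only, and with the dye as a term the mean was -0.049 (adjusted p = 0.825). Mmp25, the membrane-type MMP of leukocytes, was below 0 in 5 of 6 horses (-0.11 ± 0.11, adjusted p = 0.468), with a mean of -0.017 without the Cy5 microarray of horse 54.

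MMP3, stromelysin 1, which cuts proteoglycans and activates other MMPs, lay between -0.39 and 0.19 on its equine probe (mean -0.10 ± 0.19, 95% interval -0.30 to 0.11). The mouse probes of Mmp11, stromelysin 3, and Mmp7, matrilysin, had means of -0.12 and 0.06. Mmp12, the elastase of macrophages, had 1 value in each of 5 horses, from -2.96 in horse 44 to 3.14 in horse 54, and its interval of -1.84 to 1.69 leaves its direction unknown. Mmp21 was high in horses 32 and 54, up to 1.10, and between -0.24 and 0.08 in the other 5 (mean 0.23 ± 0.57, adjusted p = 0.509).

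**Figure D3:**
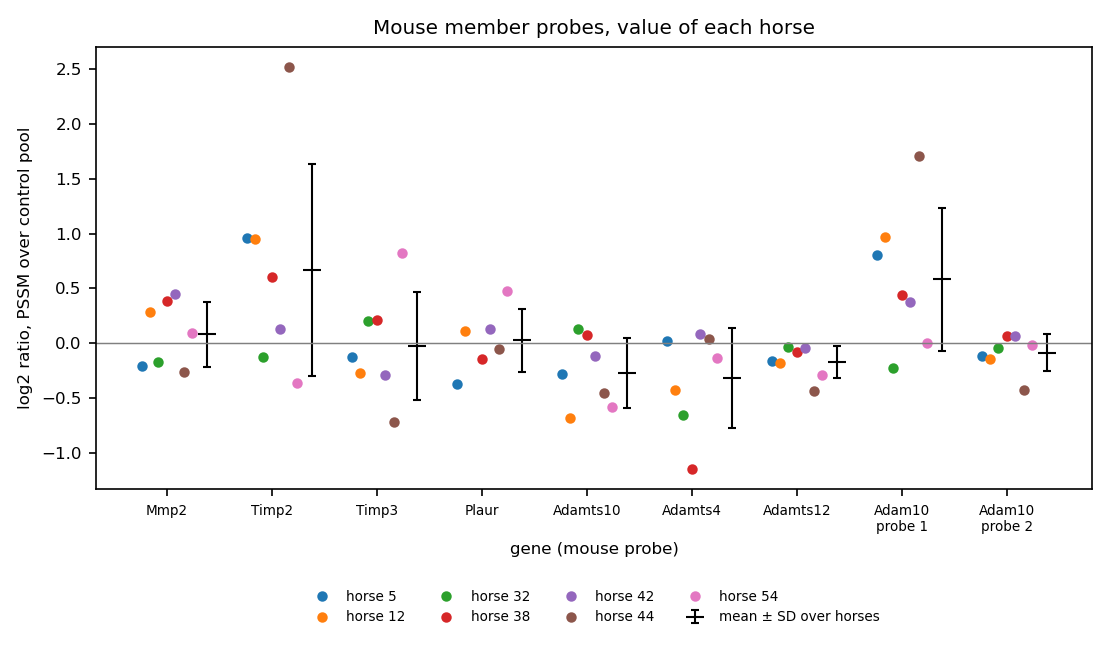
Log2 ratio of PSSM muscle over the control pool (vertical axis) for 9 mouse probes, 1 point per horse, with the mean and SD over horses beside each gene. Horse 44 is highest for Timp2 at 2.52 and for Adam10 probe 1 at 1.70, and all 7 horses lie below 0 for Adamts12.

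Adam10, a sheddase that cuts Notch and many other membrane proteins, was read by 2 mouse probes. Probe 1 gave 0.81 in horse 5, 0.97 in horse 12, -0.23 in horse 32, 0.44 in horse 38, 0.38 in horse 42, 1.70 in horse 44 and 0.00 in horse 54. It was above 0 in 5 horses, with horse 44 highest, and its 3 highest horses, 5, 12 and 44, were also those of Timp2. The mean was 0.58 ± 0.65 (n = 7 horses, 95% interval 0.11 to 1.06, adjusted p = 0.178 in limma), from 10 values, 2 of which had the control at its floor (9.16% of all mouse values). In the fit of single microarrays it passed, at a mean of 0.75 (adjusted p = 0.0255; 2.75% of all mouse probes were called higher there), and over its 18 alternatives the adjusted p ran from 0.0255 to 0.293. Probe 2, with values on all 14 microarrays, had a mean of -0.09 ± 0.17 (95% interval -0.26 to 0.09, adjusted p = 0.566) and was lowest in horse 44, at -0.42. The 2 probes differed by 0.67 ± 0.79 (exact sign-flip p = 0.0469, adjusted p = 0.234 over 5 pairs), with means of opposite sign.

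The other ADAMs stayed closer to 0. Adam17, which releases tumor necrosis factor from the cell surface, had a mean of 0.04 ± 0.19 (95% interval -0.15 to 0.22), Adam15 of 0.06 ± 0.24, and Adam19, which is expressed in developing muscle and heart, of 0.03 ± 0.36. Adam19 was highest in horse 44, at 0.68. Adam22, a catalytically inactive ADAM of nerve cells, had probes with means of 0.08 and -0.22, and Adam28, an ADAM of lymphocytes and epididymis, of -0.03 and -0.15. The difference within each pair missed the threshold of the exact sign-flip test (adjusted p = 0.443 for both), at 0.30 ± 0.54 and 0.12 ± 0.25. Adam7, Adam29 and Adam30, known from testis and epididymis, had means of -0.22, -0.26 and 0.26 and adjusted p-values of 0.305 to 0.536, and Adam7 had a mean of -0.081 without the Cy5 microarray of horse 54. Adam12, an ADAM of regenerating muscle, had an empty cell on every microarray.

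Of the 7 ADAMTS probes, 6 had a mean below 0, where 51.9% of all tested mouse probes did, and none passed. Adamts12 was the only one of the 25 mouse probes with values from all 7 horses to have the same sign in all of them, from -0.43 in horse 44 over a median of -0.16 to -0.03 in horse 32; among all such mouse probes the share was 10.1%. Its mean was -0.17 ± 0.15 (95% interval -0.34 to -0.0049, adjusted p = 0.249 in limma; exact sign-flip p = 0.0156, the smallest it can give), and it is named here because of these values. Centred on equine probes, its mean was -0.048. None of the 7 equine probes had the same sign in all horses, against 22.5% of all equine probes. Adamts10, which binds microfibrils, ran from -0.68 in horse 12 to 0.13 in horse 32 (mean -0.27 ± 0.32, 95% interval -0.53 to -0.01, adjusted p = 0.241), and its mean was -0.11 (adjusted p = 0.665) without the Cy5 microarray of horse 54. Adamts4, an aggrecan-cutting enzyme, was lowest in horse 38, at -1.14, and between 0.02 and 0.08 in horses 5, 42 and 44 (mean -0.32 ± 0.46, adjusted p = 0.303). Adamts18 ran from -0.99 in horse 54 to 0.49 in horse 44 (mean -0.20 ± 0.47), and Adamts1 and Adamts9, which cut versican, had means of 0.03 and -0.02.

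The dye moved many of these values. A difference between the 2 microarrays of a horse passed the test in 3 of 6 equine probes, where 55% of all equine probes passed, and in 9 of 19 mouse probes, where 38.5% of all mouse probes passed. MMP13 was 0.96 higher with PSSM muscle in Cy5 than in Cy3 (adjusted p = 0.000879, limma), MMP2 was 0.94 higher (adjusted p = 0.00142) and MMP14 0.53 higher (adjusted p = 0.00243), while Adamts10 was 1.22 lower and Adamts1 1.09 lower. All 12 probes with such a difference had means of opposite sign in the 2 orientations. With PSSM muscle in Cy3 alone, MMP13, PLAU and MMP14 would have been called lower (3 of 7; 30% of all equine probes), and with PSSM muscle in Cy5 alone only MMP2 would have been called, and higher (1 of 6; 9.25%). MMP2 had a mean of -0.03 in Cy3 and 0.90 in Cy5. Among mouse probes, 7 of 30 were called in Cy3 alone (21.4% of all mouse probes) and 1 of 20, Adamts10, was called lower in Cy5 alone (10.7%). A dye effect cancels in the average of a horse with both orientations, and 21 of the 38 probes lacked at least 1 of the 14 values.

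**Figure D4:**
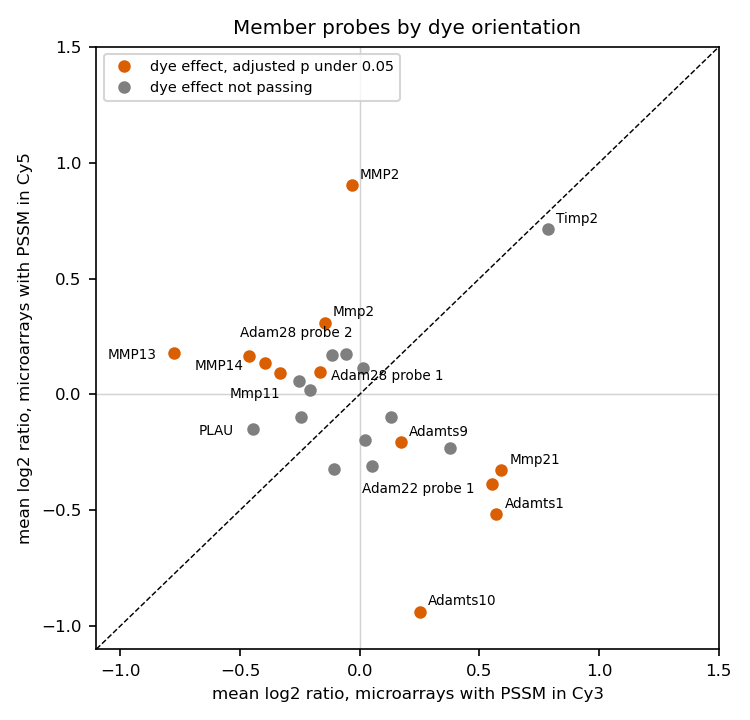
Mean log2 ratio of PSSM muscle over the control pool with PSSM muscle in Cy3 (horizontal axis) and in Cy5 (vertical axis) for the 25 probes tested for a dye effect; orange points passed that test, grey points did not, and the dashed line marks equal means. The 12 orange points all lie where the signs differ, while PLAU and Timp2 have the same sign in both.

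Horse 44 had the widest spread over the kept probes, with an SD of 0.91 where the other horses lay between 0.25 and 0.69. It was the highest horse in 8 probes and the lowest in 11, and horse 54 was the highest in 8 and the lowest in 8. The spread over all equine probes was also widest on the microarrays of horse 44 (SD 0.99 in Cy3 and 1.03 in Cy5). Over all probes, the Cy5 microarray of horse 54 was widest (2.11). Fibroblast markers were highest in the same horse: the median of 13 mouse probes was 0.66 in horse 44 and -0.13 to 0.35 in the others, and the median of the 2 equine probes, COL1A1 and LUM, was 2.76 against -0.15 to 1.13. Macrophage markers had a median of 1.11 in horse 44 over 3 equine probes, the highest of the 7 horses, and of 0.13 over 10 mouse probes, inside the range of the others. Equine medians of muscle fiber (0.35), neutrophil (2.41, 1 probe), endothelial (0.32) and satellite cell markers (0.86) were also highest in horse 44, as was the mouse endothelial median (0.14). The mouse medians of muscle fiber (-0.14), neutrophil (0.10) and satellite cell markers (0.15) were not, nor were those of liver and adipocyte markers. The part of these cell types in the values of MMP2, Timp2 and Adam10 was not tested.

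Genes that work with these enzymes were counted in the same fits. The shares over all tested probes, 24.4% of equine and 1.81% of mouse ones, are the background of these counts. Of the matrix proteins that they cut, 1 of 7 equine probes was up-regulated: LUM, a collagen-binding proteoglycan, at 1.65 ± 1.44 (adjusted p = 0.0269), from 0.0053 in horse 54 to 4.30 in horse 44. Of 28 mouse probes of matrix proteins, 1 was up-regulated (Lamc1, a laminin chain of basement membranes, 0.88 ± 0.49) and 1 down-regulated (Fn1, fibronectin, -1.30 ± 0.74, n = 6 horses). The equine probe of FN1 lay on the other side of 0, at 1.05 ± 1.16, above 0 in 6 of 7 horses with 3.37 in horse 44, and missed the threshold (adjusted p = 0.0661). The study lists FN1 as up-regulated on its microarrays and found it down-regulated by quantitative RT-PCR. Fibronectin is also secreted by the liver, and the mouse probes of liver markers above were also lower. The part of liver-type RNA in the value of the mouse probe of Fn1 was not tested. Of proteins shed by these enzymes, 3 of 8 equine probes passed: CD44, a hyaluronan receptor, was up-regulated (1.21 ± 1.07), VCAM1, an adhesion molecule, was up-regulated (0.99 ± 0.74), and CSF1, a macrophage growth factor, was down-regulated (-0.42 ± 0.31); on mouse probes 0 of 22 passed, with means of 0.06 for Cd44, -0.55 for Vcam1 and 0.03 for Csf1. The mouse probe of Vcam1 was above 0 in 4 of 6 horses, with an SD of 3.08. Its mean includes -6.64 in horse 54, which is the lowest deposited ratio, 0.01. The equine probe of VCAM1 had a mean of 2.16 in Cy3 and -0.19 in Cy5. Of the signals that induce MMP genes, STAT3 (-0.39 ± 0.19) and RELB (-0.41 ± 0.18), both transcription factors, were down-regulated in all 7 horses among 10 equine probes, and 0 of 14 mouse probes passed, with means of -0.08 for Relb and near 0 for Stat3. STAT3 had a mean of 0.26 in Cy3 and -1.04 in Cy5. Regulators of MMP activity gave 0 calls among 1 equine and 11 mouse probes.

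Of the 73 probes, 35 mouse probes were not tested, and all 7 equine ones were (94% of all equine probes). Values were empty on every microarray for 12 of them and came from 1 to 4 horses for 23. The share of probes with values from at least 5 horses was 31 of 66 here and 54.2% over all mouse probes. Mmp8, Mmp12 and Adam30 were just inside the limit with 5 horses, and Adam2, a sperm ADAM with values from 4 horses between -1.03 and -0.13, was just outside. Besides those named above, the genes of enzymes without enough values included Mmp15 of the membrane type, Adam9 and Adamts5, and no comparison was made for them.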

How the data were processed

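Total RNA of gluteus medius muscle was amplified in vitro, labelled with Cy3 or Cy5 and hybridized on spotted oligonucleotide microarrays. The deposited values are the natural log of the Cy5 to Cy3 ratio, 1 per probe and microarray; the authors quantified spots with GenePix Pro 6.0, applied Lowess normalization in GeneSpring and formed the ratio. The natural log was recognized from columns that end at ratios of 0.01 and 100. The background correction and the rule behind empty cells are not given in the sources used here. Equine probes were named from the study's list of probes and mouse probes from the platform annotation; 13430 mouse probes carried 1 symbol and 10679 none, and those could not be matched.

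The dye labels gave each ratio its direction, PSSM over control, and log2 values of a horse were averaged. The test against 0 used limma 3.58.1 (lmFit, eBayes) under R 4.3.3 on probes with 5 or more horses; p-values were adjusted by Benjamini-Hochberg over 361 equine or 13067 mouse probes. The 2 microarrays of a horse counted as 1 replicate. Their difference, tested in limma, gave the dye effect, and an exact two-sided sign-flip test was run over horses. The control was taken to be at its floor where the ratio times 10 was whole within 0.0002. The number of microarrays limits the precision. Scripts were tested on simulated data.

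The probes and gene lists were chosen with earlier results of these data known. Named were all equine probes, the 5 highest and 5 lowest mouse means among probes with all 7 horses, every tested TIMP, RECK and plasminogen activator gene, mouse probes of genes with an equine probe, and up to 4 called probes of each list; the others were named after their values were seen. Probes of a gene were numbered from the highest mean. Alternatives were the methods' t-test, adjusted and unadjusted, robust eBayes, single microarrays with the dye as a term and horse as block (statmod 1.5.0), each dye orientation, centring on equine or all probes, probes on all 14 microarrays, a minimum of 2 horses, adjustment over all probes, leaving out values whose control was at this floor, and each horse left out. The Cy5 microarray of horse 54 was left out, and probes of a gene were compared, after the data had been seen. Tables and plots were made in Python 3.11.15 (pandas 2.3.3, numpy 2.4.6, matplotlib 3.10.9).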

Additional observations from a re-analysis of the deposited data

Results flagged for a closer look

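Horse 44 lay far from the other 6 horses in 2 of the 38 probes. For the equine probe of MMP2 it had a log2 ratio of 1.45, and the next horse had 0.49. For probe 2 of Adam10 it had -0.42, and the next horse had -0.14. By chance, about 1 in 20 probes would have a horse this far from the rest.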

How the results depend on the processing

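The count of called probes stayed at 0 of 7 equine and 0 of 31 mouse probes, or of those left to test, with the adjusted t-test, robust eBayes, both centrings, values on all 14 microarrays, at least 2 horses, adjustment over all probes, the control at its lowest level left out, each horse left out and the Cy5 microarray of horse 54 left out; the lowest adjusted p in limma without a horse was 0.0526 (PLAU, without horse 12). The counts were 2 equine and 2 mouse probes with the unadjusted t-test, 1 and 1 with single microarrays and the horse as a block, 3 and 7 with Cy3 alone, and 1 and 1 with Cy5 alone. The causes were not tested.

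Some means turned sign, and these values were as follows. With Cy3 alone they were MMP1 -0.12, MMP2 -0.034, Adam10 probe 2 0.024, Adam19 -0.11, Adamts10 0.25, Adamts9 0.17, Mmp2 -0.15, Mmp25 0.052, Mmp7 -0.059 and Timp3 0.34. With Cy5 alone they were MMP13 0.18, MMP14 0.13, MMP16 -0.23, MMP3 0.058, Adam17 -0.096, Adam22 probe 1 -0.39, Adam28 probe 1 0.098, Adam28 probe 2 0.17, Adamts1 -0.52, Adamts7 0.018, Mmp11 0.094 and Mmp21 -0.33. Centred on equine probes they were MMP3 0.027, Adam10 probe 2 0.038, Adam28 probe 1 0.091, Adamts7 0.024, Adamts9 0.11, Mmp11 0.0040, Mmp12 0.091, Mmp25 0.015 and Timp3 0.071, and centred on all probes Adamts9 0.0020. With single microarrays and the horse as a block they were Adam29 0.061, Mmp12 1.13, Mmp17 -0.049 and Plaur -0.034. With the control at its lowest level left out they were MMP1 -0.26 and Adam17 -0.036, and without the Cy5 microarray of horse 54 Adamts9 0.0028. None of these turned values was called.

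Leaving out each horse turned the sign in 8 probes: MMP1 ran from -0.16 to 0.42, Adam17 from -0.0055 to 0.077, Adam19 from -0.081 to 0.085, Adam28 probe 1 from -0.073 to 0.0099, Adamts1 from -0.062 to 0.13, Adamts9 from -0.097 to 0.12, Plaur from -0.065 to 0.11 and Timp3 from -0.17 to 0.091. No paired analysis was possible because the pool is the only control; the replicate numbers mark the 2 dye-swapped microarrays of a horse. Empty cells and the number of horses limit the precision; the signal over background is not known.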
